A study of Saccharomyces cerevisiae with 48 samples.

Results

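The genes described here encode 10 cytosolic heat shock proteins and chaperones of budding yeast. They are the small stress protein HSP12, the small heat shock proteins HSP26 and HSP42, the disaggregase HSP104 and the Hsp90 pair HSP82 and HSC82. The others are SSA1, SSA2, SSA4 and SSE1 of the Hsp70 machinery. All 10 genes were chosen by gene symbol, and each matched 1 probe set. Thus 10 probe sets of the 10928 on the array were followed over all 48 arrays. All RNA was taken from 1 fermenter of Saccharomyces cerevisiae strain IFO0233, which is known for synchronous cycles of respiration, with 1 sample and 1 array every 4 min. The control group held 11 arrays between 13.8 and 14.5 h after inoculation. The other 37 arrays, between 14.6 and 17.0 h, were taken once phenelzine, an inhibitor of monoamine oxidase, was present. Both groups shared strain, medium and vessel, and the phenelzine dose is not given in the sources used here. The stated purpose was to double the period of the cycle. Per the growth protocol, oscillation usually sets in later than the control hours. There was no second culture and no untreated culture over the same hours, so p-values measure the spread between time points of 1 culture, and drug and elapsed time cannot be told apart.

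Chaperones of the Hsp70 and Hsp90 families fold new and damaged proteins with energy from ATP, small heat shock proteins hold unfolded proteins in aggregates that can be dissolved again, and Hsp104 pulls proteins out of aggregates together with Hsp70. In yeast the heat shock factor Hsf1 drives most chaperone genes, also without stress, while Msn2 and Msn4, the general stress factors, drive genes such as HSP12 when growth slows or glucose signalling falls. Some members are made at high level at all times (HSC82, SSA2), and others are the inducible partners of the same families (HSP82, SSA4).

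All values below are log2 signals after quantile normalization, which gives every array the same distribution of signals. Levels were compared within a gene, since signals of different probe sets do not share a scale. As bulk values, they cannot tell fewer cells with a transcript from less transcript per cell. Every member was measured well above background: the lowest value of any was 7.54, of HSP26, against a background of 3.01. Below that level lay 90% of fission yeast probe sets. By mean signal HSP26 and SSA4 were among the dimmer ones, 4813th and 4212th from the highest of the 5372 probe sets above background. Arrays differed in overall signal as deposited, with column medians from 32.4 to 86.8. Array numbers in the labels skip 91, and the 16 arrays after it, all with phenelzine and from 84 min on, had a larger excess of 3 prime over 5 prime signal for the dap spike. This log2 ratio was 2.40 ± 0.23 (SD, n = 16) after the missing number, while the arrays before it had 1.59 ± 0.13 (SD, n = 32). The third cycle described below lies wholly after that number, and the part of this difference in its results was not tested except where values are given.

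Time is counted in minutes from the first phenelzine sample, and 4 windows of about 1 cycle each were compared. They were the control (-44 to -4 min), and after the addition the first cycle (0 to 44 min), the second (48 to 92 min) and the third (from 100 min to the last sample), with 11, 12, 12 and 12 arrays. The array at 96 min lies between windows.

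**Figure D1:**
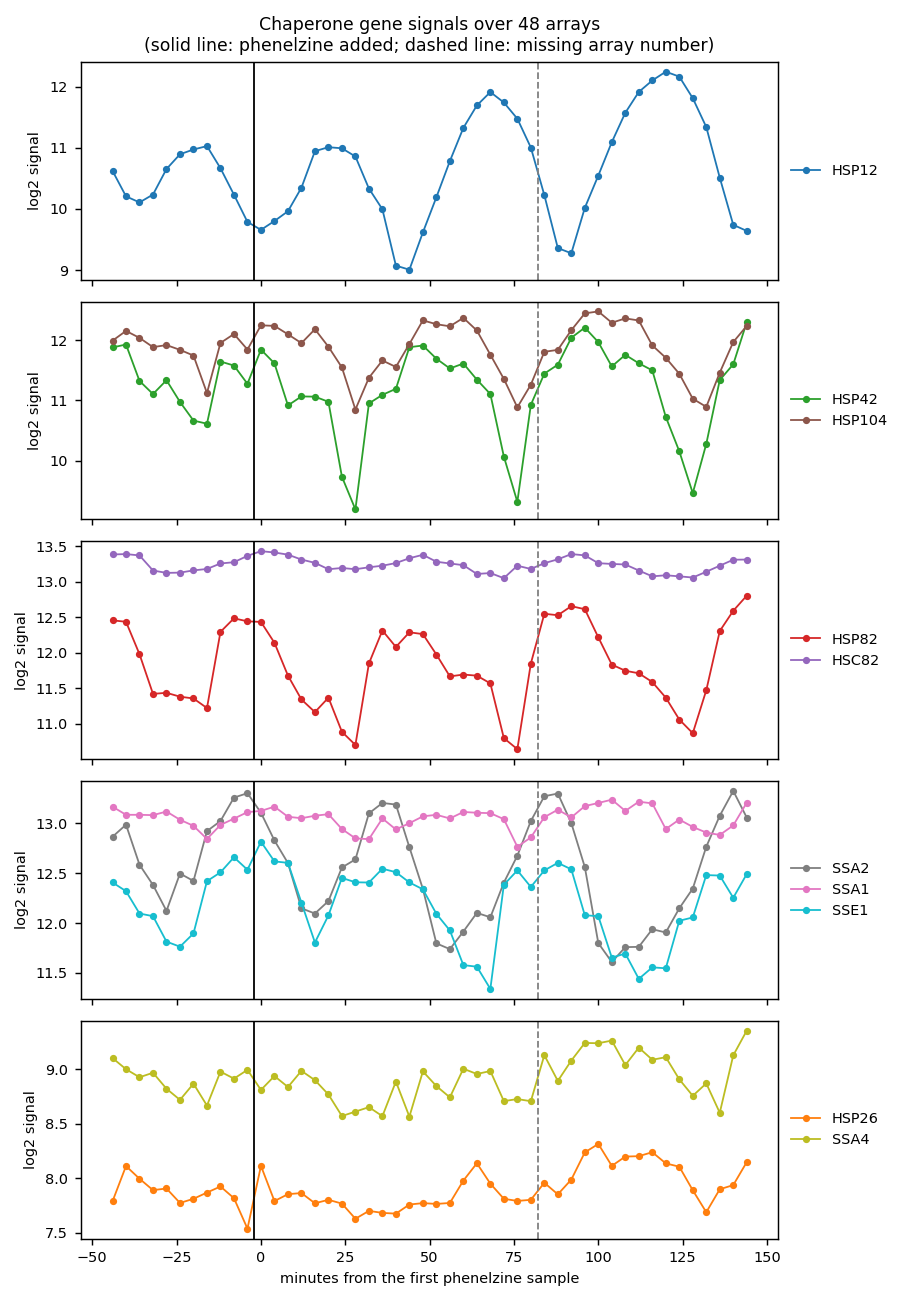
Log2 signal (vertical axes, with a scale per panel) of the 10 genes against minutes from the first phenelzine sample, 1 point per array. HSP12 peaks at 11.03, 11.01, 11.91 and 12.24 in the 4 windows, while HSP42 and HSP82 have their lowest arrays at -16, 28, 76 and 128 min. In the control HSP82 was low over several arrays, from 11.42 at -32 min to 11.22 at -16 min. HSC82 and SSA1 stay nearly level.

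HSP12 encodes a small membrane-stabilising stress protein. Its control signals ran from 9.79 to 11.03, with a median of 10.62. In the first cycle they ran from 9.01 to 11.01 (median 10.16), in the second from 9.28 to 11.91 (median 10.89) and in the third from 9.64 to 12.24 (median 11.46). The 4 ranges overlapped, but the peak stood higher in both later cycles than in the first. The lowest array of the first cycle, at 44 min, was the lowest of all 48. In the labels, array names carry suffix 1 up to 36 min and suffix 2 at 40, 44 and 48 min. The HSP12 change of -0.92 from 36 to 40 min lies at this switch of suffix, whose part was not tested. In the intensities as deposited the highest HSP12 value was 2291 in the control, 1986 in the first, 3209 in the second and 5446 in the third cycle. HSP12 had a broad, rounded peak, with smoothed maxima at -20, 20, 68 and 120 min.

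HSP42, a small heat shock protein that gathers misfolded proteins into aggregates, had the opposite shape, a broad plateau and a narrow minimum. Control values lay between 10.61 and 11.93 (median 11.33). After the addition they lay between 9.19 and 11.89 (median 11.07), between 9.31 and 12.04 (median 11.49) and between 9.46 and 12.30 (median 11.53) in the successive cycles. The lowest array stood at -16, 28, 76 and 128 min, and each of the 3 minima after the addition was below every control array. Recovery from the minimum was abrupt: from 28 to 32 min HSP42 went from 9.19 to 10.95, 3.40-fold within 1 sampling step, and from 76 to 80 min from 9.31 to 10.93, which is 3.06-fold. The steepest step was 2.05-fold in the control and 2.09-fold in the third cycle. The arrays at -16 and 28 min had the lowest column medians of their windows as deposited, 44.06 and 36.86. Those at 76 and 128 min did not have the lowest of theirs. The part of low array signal in the minima and steps of HSP42, HSP82 and HSP104 was not tested. A step up of at least 1 on the log2 scale occurred at some point in 9.31% of tested probe sets, and the median size of a 4-min step was 0.13.

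HSP104, the disaggregase, followed HSP42 with a shallower minimum. It ranged from 11.12 to 12.16 in the control (median 11.92), from 10.85 to 12.25 in the first cycle (median 11.92), from 10.89 to 12.38 in the second (median 12.00) and from 10.89 to 12.48 in the third (median 11.95). Its lowest arrays were at -16, 28, 76 and 132 min, and the array at 132 min had the lowest column median of the third cycle, 38.29. Medians differed little between windows, so that the cycles differed mainly at their extremes.

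HSP26, the small heat shock protein that forms large storage complexes with unfolded proteins, varied little after quantile normalization. Its control values ran from 7.54 to 8.11 (median 7.87). They ran from 7.63 to 8.11 (median 7.77) in the first cycle, from 7.76 to 8.14 (median 7.83) in the second and from 7.69 to 8.31 (median 8.12) in the third. The windows overlapped, and 5 smoothed peaks were found, 2 of them in the control, against 4 for HSP12. The highest minus the lowest HSP26 array was 0.57, 0.49, 0.37 and 0.63 in the 4 windows in time order. As deposited it was 1.06, 1.52, 0.89 and 1.42, so the small variation depends on the scaling.

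Of the Hsp90 genes, HSP82, the heat-inducible copy, oscillated widely. Its values were 11.22 to 12.48 in the control (median 11.98), 10.70 to 12.43 in the first cycle (median 11.76), 10.64 to 12.65 in the second (median 11.77) and 10.87 to 12.80 in the third (median 11.73). The lowest arrays fell at the same 4 times as those of HSP42, and the step right after was 2.10-fold, 2.21-fold and 2.31-fold in the control, first and second windows. In the third the steepest step, from 132 to 136 min, was 1.78-fold. HSC82, the constitutive copy, was nearly level, between 13.05 and 13.43 over all windows. Its medians were 13.26, 13.26, 13.24 and 13.19 in time order. Both copies encode nearly identical proteins, and whether a probe set also takes up the other copy was not checked. Their profiles correlated at r = 0.70 over the 48 arrays.

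Among the Hsp70 genes, SSA2, a constitutive Hsp70, moved with SSE1, the Hsp110 that exchanges nucleotide on Hsp70. SSA2 ran from 12.12 to 13.30 in the control (median 12.86), from 12.10 to 13.20 in the first cycle (median 12.70), from 11.74 to 13.30 in the second (median 12.37) and from 11.61 to 13.32 in the third (median 12.04). Peaks stayed at one height while the minimum and the median were lower in each later window. SSE1 ran from 11.76 to 12.66 (median 12.32), from 11.81 to 12.82 (median 12.43), from 11.34 to 12.60 (median 12.35) and from 11.44 to 12.49 (median 12.04) in the same order. Between 68 and 72 min SSE1 went from 11.34 to 12.38, a 2.06-fold step, before HSP82 and HSP42 reached their minima at 76 min. The array at 68 min had the lowest column median of all, 32.4 against 64.9 at 72 min, and name suffix 1 against 2, and the part of these in the step was not tested.

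SSA1, the other abundant Hsp70, was nearly level, from 12.76 to 13.24 over the windows. Its profile ran against that of its near-identical relative SSA2 (r = -0.35 over 48 arrays). Whether either probe set takes up the other transcript was not checked, and the small SSA1 changes depend on the scaling, so little can be read from this value. SSA4, the Hsp70 that is induced by stress, ran from 8.67 to 9.10 in the control (median 8.93), from 8.57 to 8.99 in the first cycle (median 8.79), from 8.71 to 9.13 in the second (median 8.93) and from 8.60 to 9.36 in the third (median 9.10). The windows overlapped.

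The members thus did not share a phase. In the running mean over 3 arrays, troughs of HSP42 and HSP104 came at -20, 28, 76 and 128 min, and those of HSP82 at -20, 24, 72 and 124 min. HSP12 peaked at the same time or at most 8 min before the HSP42 trough. SSA2 had its troughs earlier, at -28, 16, 56 and 108 min, and SSE1 at -24, 16, 64 and 116 min. The 53 probe sets of rRNA processing genes with UTP, NOP and RRP names, taken as a landmark of the cycle, peaked on average at -20, 28, 76 and 128 min, the times of the HSP42 and HSP104 troughs. The mean of 142 cytosolic ribosomal protein probe sets (RPL and RPS names) peaked 1 sampling step later, at 32, 80 and 132 min after the addition, and that of 43 mitochondrial ribosomal protein probe sets (MRPL and MRPS names) at -32, 12 and 56 min in the first 3 windows. The landmarks were picked by name with earlier results of these data known, and all of these times are resolved to 4 min and rest on 1 culture.

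**Figure D2:**
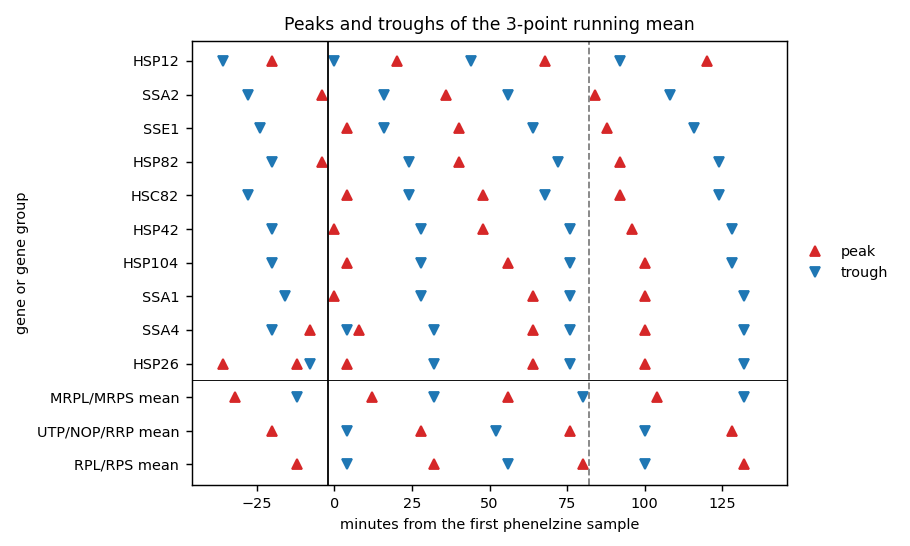
Times of peaks (upward triangles) and troughs (downward triangles) in the 3-point running mean of each gene, and of 3 landmark groups below the line, in minutes from the first phenelzine sample. The troughs of HSP42 and HSP104 at 28, 76 and 128 min lie at the peaks of the UTP, NOP and RRP mean, and the troughs of SSA2 at 16, 56 and 108 min come before them.

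A rhythm passed the test for most members, as it did for most genes. With a 40-min cosine, 8 of 10 members passed in the control arrays (limma F test, Benjamini-Hochberg adjusted p under 0.05), where 66.7% of the 5372 tested probe sets passed. HSP82 had the largest amplitude of the members, 0.65 on the log2 scale (adjusted p = 6e-05, n = 11 arrays). SSA2 followed with 0.48, HSP12 with 0.46, HSP42 with 0.45 and SSE1 with 0.39. HSP104 at 0.24 (adjusted p = 0.061) and HSP26 at 0.07 (adjusted p = 0.68) did not pass. With a 48-min cosine in the phenelzine arrays all 10 members passed, beside 89.7% of tested probe sets. There the amplitude was 1.16 for HSP12, 0.90 for HSP42, 0.68 for HSP82, 0.67 for SSA2, 0.59 for HSP104, 0.46 for SSE1 and 0.12 to 0.19 for the other 4. The fitted peak lay at 20.4 min for HSP12, 38.3 min for SSA2, 39.6 min for SSE1, 46.6 min for HSP82, and 3.4 and 6.8 min, after the start of a 48-min cycle, for HSP42 and HSP104. Median amplitudes were 0.32 in the control and 0.53 after the addition for the members, and 0.21 and 0.23 for all tested probe sets. Control samples spanned 40 min, too short to tell a rhythm from 1 excursion, and the difference between the groups' amplitudes was not tested. SSA1 lost both calls when the values were used as deposited or with columns centred on their median, and HSC82 lost its control call as deposited. HSP104 gained a control call as deposited (0.34, adjusted p = 0.0028), and HSP26 lost its phenelzine call among arrays before the missing number (0.11, adjusted p = 0.086).

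The swing within a window is the highest minus the lowest array. After quantile normalization it was wider in each cycle after the addition than in the control for HSP42, HSP12, HSP82 and HSP104, and by less for SSE1 and SSA1. For HSP42 it was 1.32 in the control and 2.70, 2.73 and 2.85 in the later windows in time order. The highest array of these 3 cycles was 6.51-fold, 6.65-fold and 7.20-fold the lowest. HSP12 swung by 1.24, 2.00, 2.64 and 2.60, and HSP82 by 1.26, 1.73, 2.01 and 1.94. The HSP104 swing was 1.04, 1.40, 1.49 and 1.59 in time order. For SSA2 it was 1.18 in the control, 1.11 in the first cycle, 1.56 in the second and 1.72 in the third. The SSE1 swing was 0.90, 1.01, 1.26 and 1.05 in the same order, and that of SSA1 0.32, 0.33, 0.37 and 0.35. HSC82, SSA1, SSA4 and HSP26 stayed between 0.25 and 0.75. The third-cycle swing was above the control swing in 9 of 10 members, against 72.9% of all tested probe sets. It was at least 2 times the control swing in 2 members, HSP12 and HSP42, against 5.7% of tested probe sets. As deposited HSP42 ran from 1226 to 4276 in the control and from 679 to 5609 in the third cycle. On the log2 scale this was less than 2 times the control swing. HSP104 as deposited ran from 1791 to 4923 in the control and from 1972 to 5120 in the second cycle. SSA1 ran from 7137 to 10494 in the control and from 8144 to 10656 in the third cycle. On the log2 scale both of these later swings were narrower than in the control, so the wider swings of HSP104 and SSA1 depend on the scaling. The median swing of all tested probe sets was 0.59 in the control and 0.70 in the third cycle. These are single extremes without replicates, and the control window held 1 array fewer. With columns centred on their median the swings of HSC82 and SSA1 came to between 0.58 and 1.31. The near level profiles of these brightly measured genes thus depend on the scaling, as do the small HSP26 swings given above.

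**Figure D3:**
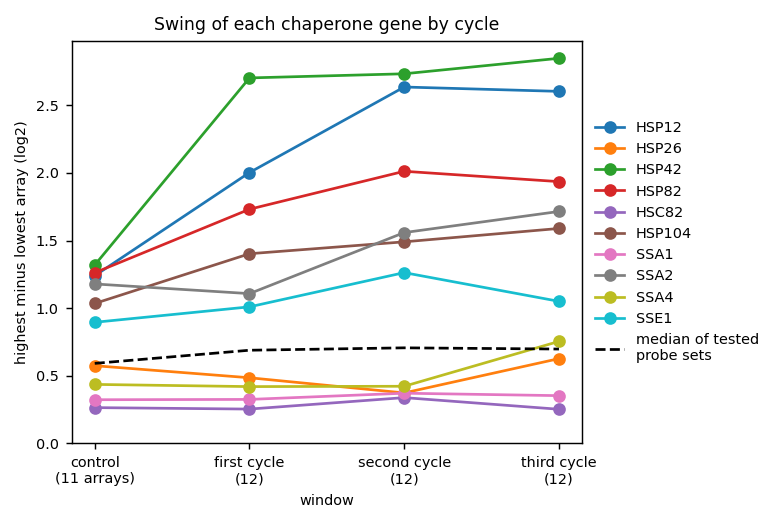
Swing of each gene (highest minus lowest array, log2 scale, from 0) in the control window and in the 3 cycles after phenelzine, 1 line per gene, with the median of the 5372 tested probe sets as a dashed line. HSP42, HSP12 and HSP82 leave the control at 1.24 to 1.32 and lie at 1.94 to 2.85 in the third cycle, and HSC82 and SSA1 stay below the dashed line.

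Averaged over all time points, no member passed the test between the 37 phenelzine and the 11 control arrays. The log2 differences ran from -0.27 for SSA2 (95% interval -0.61 to 0.07) to 0.19 for HSP12 (-0.38 to 0.77). Of the members 0 passed limma's test, beside 0.465% of tested probe sets called, 0.354% higher and 0.112% lower. An unadjusted p under 0.05 was found for 0 members, beside 9.44% of tested probe sets. The intervals hold the spread of the whole cycle, so cycles were also compared by pairs of arrays at about the same position in it.

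In the first cycle HSP42 and HSP82 fell against the control samples 44 min earlier. The HSP42 difference was -0.43 in log2 units (SE 0.11, adjusted p = 0.027, limma, 11 pairs) and was lower in 10 of 11 pairs. HSP82 fell by 0.27 (SE 0.05, adjusted p = 0.0071) and was lower in 11 of 11 pairs. These 2 of 10 members were the calls, where 8.49% of tested probe sets were called, 4.45% lower and 4.04% higher. Of these calls 47.6% were higher, against 2.32% in the values as deposited, where the median of all tested probe sets moved by -0.13 and HSP82 stood at -0.41. HSP12 stood at -0.22 (adjusted p = 0.14), SSA4 at -0.13 (adjusted p = 0.11) and SSE1 at 0.18 (adjusted p = 0.081), and the other 5 members lay between -0.09 and 0.02. With pairs 40 or 48 min apart the differences were -0.40 and -0.42 for HSP42 and -0.26 and -0.28 for HSP82, neither past the threshold. At those lags limma called 4 and 9 probe sets in all, against 456 at 44 min.

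From the first to the second cycle HSP12 and HSP42 rose and SSE1 fell. In pairs 48 min apart HSP12 rose by 0.55 (SE 0.08, adjusted p = 0.00033, limma, 12 pairs), which is 1.47-fold, and was higher in 11 of 12 pairs. This was the 23rd highest of 5372 differences. HSP42 rose by 0.26 (SE 0.05, adjusted p = 0.0037), higher in 11 of 12 pairs. SSE1 fell by 0.26 (SE 0.08, adjusted p = 0.031), lower in 9 of 12 pairs. The 3 calls among 10 members stand beside 22.1% of tested probe sets called, 10.9% higher and 11.2% lower. Of all calls 49.2% were higher, and 62.8% in the values as deposited. SSA2 at -0.23 (adjusted p = 0.096), SSA4 at 0.14 (adjusted p = 0.093) and HSP82 at 0.13 (adjusted p = 0.12) did not pass, and HSP104 stood at 0.08 with a 95% interval from -0.02 to 0.17. Since the first cycle serves in both comparisons, the lower HSP42 of the one and the higher HSP42 of the other share their arrays. HSP42 and SSE1 kept differences of like size but lost their calls as deposited (0.33 and -0.21) and at lags of 44 min (0.26 and -0.25) and 52 min (0.28 and -0.28). SSE1 also lost its call with median centring (-0.21, adjusted p = 0.061), and in the 6 pairs without arrays of name suffix 2 its difference was -0.47 (adjusted p = 0.0077). HSP12 lost its call at 52 min, with a difference of 0.58.

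From the second to the third cycle HSP12 rose again, by 0.51 (SE 0.06, adjusted p = 0.00023, limma, 12 pairs 52 min apart), higher in 12 of 12 pairs. HSP26 rose by 0.19 (SE 0.06, adjusted p = 0.032), higher in 10 of 12 pairs. SSA2 fell by 0.18 (SE 0.04, adjusted p = 0.012) and SSE1 by 0.17 (SE 0.05, adjusted p = 0.04), lower in 9 and 10 of 12 pairs. These were 4 of 10 members, beside 16.4% of tested probe sets called, 9.03% higher and 7.41% lower. Of all calls 54.9% were higher, against 99.6% as deposited and 39.6% after median centring. HSP42, HSP82 and HSP104 stood at -0.03 each, with 95% intervals of -0.16 to 0.11, -0.13 to 0.08 and -0.13 to 0.08. Of the 12 pairs 9 straddle the missing array number. In the 3 pairs wholly after it the difference was 0.34 for HSP12, 0.06 for HSP26, -0.04 for SSA2 and -0.15 for SSE1, and limma called 0 members, with 1 at an unadjusted p under 0.05. The unadjusted share of all tested probe sets was not counted for these 3 pairs. As deposited, where the median of all tested probe sets moved by 0.19, SSA2 and SSE1 stood at 0.06 and 0.07, and HSP26 at 0.30 (adjusted p = 0.088). With median centring HSP26, SSA2 and SSE1 stood at 0.12, -0.12 and -0.11, none past the threshold.

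**Figure D4:**
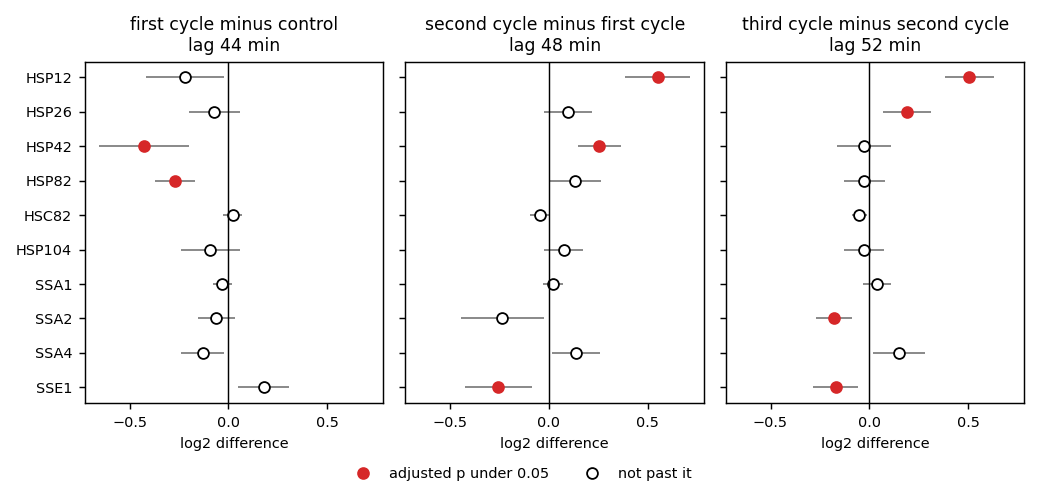
Log2 difference of each gene between successive cycles (horizontal axis), from pairs of arrays 44, 48 and 52 min apart, with 95% intervals from limma. Filled points passed an adjusted p of 0.05: HSP42 and HSP82 below 0 in the first panel, HSP12 at 0.55 in the second and at 0.51 in the third.

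Over the hours after the addition 6 of 10 members had a linear trend beside the 48-min rhythm, where 39.8% of tested probe sets had one, 20.6% higher and 19.2% lower. Of all trends called 51.8% were higher, against 97.8% as deposited. The HSP12 slope was 0.56 log2 units per hour (SE 0.07, adjusted p = 4.8e-07, limma, n = 37), the 9th highest slope of 5372. SSA4 rose by 0.18 per hour (adjusted p = 0.00014) and HSP26 by 0.17 (adjusted p = 9.5e-05). SSE1 fell by 0.26 per hour (adjusted p = 0.00011), SSA2 fell by 0.20 (adjusted p = 0.01), and HSC82 fell by 0.05 (adjusted p = 0.00018), but the last of these depends on the scaling. As deposited, where the slopes of all tested probe sets had a median of 0.11, HSC82 was called higher at 0.10 per hour (adjusted p = 0.017), and with median centring it stood at -0.01 (adjusted p = 0.92). SSE1 and SSA2 stood at -0.09 and -0.04 per hour as deposited (adjusted p = 0.2 and 0.61), neither past the threshold. HSP42 (0.18 per hour, 95% interval -0.05 to 0.40), HSP82 (0.10), HSP104 (0.04) and SSA1 (0.04) did not pass. As deposited all 4 were called higher, at 0.31, 0.24, 0.18 and 0.18 per hour, so that 8 members were called there, all higher. Among phenelzine arrays before the missing number HSP12 stood at 0.76, SSE1 at -0.46, SSA2 at -0.45 and HSC82 at -0.10 per hour, all past the threshold. HSP26 at 0.06 and SSA4 at 0.07 were not, so that their trend was called only with the arrays after that number.

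Other genes of the stress and folding network were counted from lists fixed by name. The 16 general stress genes include the catalase CTT1, the stress gene DDR2 and the trehalose synthesis genes TPS1, TPS2 and TSL1. In the first cycle 9 of 16 fell against the control and 0 rose, beside 8.49% of probe sets called. CTT1 fell by 0.45 (SE 0.07, adjusted p = 0.0049), SOL4, a phosphogluconolactonase, by 0.41 and TSL1 by 0.39. In the second cycle 12 of 16 rose and 0 fell, beside 22.1% of probe sets called, 10.9% higher, with CTT1 up by 0.54 (SE 0.09, adjusted p = 0.00079), DDR2 by 0.41 and TPS1 by 0.34. In the third 3 of 16 rose, beside 16.4% called, DDR2 by 0.30, GAC1 by 0.11 and SOD2 by 0.09. The list's median was -0.17, 0.19 and 0.09 in the 3 comparisons, against -0.01, 0.00 and 0.01 over all tested probe sets, and these comparisons share the arrays of the first and second cycle. No list was recounted at other lags or scalings. Over all tested probe sets limma called 4 and 9 at lags of 40 and 48 min in the first comparison. In the second it called 34 and 49 at lags of 44 and 52 min. As deposited the median of all tested probe sets was -0.13 in the first comparison.

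Hsp70 relatives and co-chaperones split in direction. SSA3, another inducible Ssa protein, fell by 0.28 in the first cycle (SE 0.05, adjusted p = 0.0057), rose by 0.48 in the second (SE 0.08, adjusted p = 0.0015) and rose by 0.44 in the third (SE 0.07, adjusted p = 0.0016). Its profile correlated with that of HSP12 at r = 0.93. SIS1, a J-domain partner of Hsp70, fell by 0.16 in the first cycle. SSE2, the second Hsp110 gene, rose by 0.24 in the second cycle, where FES1, a nucleotide exchange factor, fell by 0.16. In the third YDJ1, the main cytosolic J protein, rose by 0.10 and SSB2, a ribosome-bound Hsp70, fell by 0.16. Of the 13 genes 2, 6 and 3 passed in the 3 comparisons, beside 8.49%, 22.1% and 16.4% of all tested probe sets. The counts were thus 0 higher and 2 lower, then 2 higher and 4 lower, then 2 higher and 1 lower.

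Of the 10 Hsp90 co-chaperones 2, 1 and 1 passed in the same order, beside the same shares of 8.49%, 22.1% and 16.4%. AHA1, which stimulates the Hsp90 ATPase, fell by 0.16 in the first cycle and STI1, which links Hsp70 and Hsp90, by 0.10. CNS1 fell by 0.20 in the second cycle and rose by 0.17 in the third. AHA1 followed HSP82 closely (r = 0.91 over 48 arrays), while CNS1 and the phosphatase PPT1 did not (r = -0.49 and -0.47). PPT1 and CNS1 had the largest amplitudes of that list after the addition, 0.84 and 0.82.

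Of the regulators, MSN4 oscillated and HSF1 did not pass as rhythmic. HSF1 had an amplitude of 0.11 in the control and 0.04 after the addition, with no rhythm call in either (adjusted p = 0.13 and 0.16). MSN4 was rhythmic in both, with 0.43 and 0.48, and MSN2 after the addition, with 0.09. None of these 3 genes passed limma's test in the 3 cycle comparisons, where the largest differences were -0.16 and 0.10 for MSN4 (adjusted p = 0.1 and 0.12) and 0.03 for HSF1 (adjusted p = 0.63). Transcript levels say nothing of the activity of these factors.

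The counts of the remaining lists stand beside those same shares of 8.49%, 22.1% and 16.4% called. Of the 7 other heat-inducible genes 0, 1 and 2 passed, with HSP31, a stress-induced chaperone, up by 0.21 in the second cycle and by 0.14 in the third and SGT2 up by 0.09 in the third. Of the 8 subunits of the CCT chaperonin, which folds actin and tubulin, 1, 2 and 1 passed, CCT4 at 0.08 in the first cycle, CCT5 and CCT7 at -0.10 and -0.09 in the second and CCT2 at 0.11 in the third. The 6 mitochondrial chaperones gave 2, 0 and 1, with HSP78 at -0.18 and MDJ1 at -0.10 in the first cycle and HSP60 at 0.09 in the third. HSP78, the mitochondrial relative of HSP104, and MDJ1 ran with HSP82 (r = 0.78 and 0.90). The rest of that list, SSC1, HSP60, HSP10 and MGE1, did not (r = -0.26, -0.09, 0.09 and -0.35).

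The members fell into sets of like profile over the 48 arrays, given here as a description, since neighbouring arrays are not independent. All correlations, here and above, rest on the quantile normalized values and were not repeated under other scalings. The near level profiles of SSA1 and HSC82 and the small swings of HSP26 depend on the scaling, so little can be read from their correlations. HSP42 correlated with HSP82 at r = 0.85 and with HSP104 at r = 0.85, and HSP104 with SSA1 at r = 0.81. SSA2 correlated with SSE1 at r = 0.82 and hardly with HSP42 (r = 0.05). HSP12 ran against HSC82 (r = -0.79), HSP82 (r = -0.69), SSE1 (r = -0.66) and SSA2 (r = -0.62). Among 5322 other genes those most like HSP12 were SIP18, a desiccation stress gene, and GTT1, a glutathione transferase (r = 0.94 and 0.93). Most like HSP82 were YPS1, a cell surface protease, and SRY1 (r = 0.95 and 0.93), and most like HSP42 were YER079W and EDC2 (r = 0.94 and 0.93). HSP104 was closest to SAF1 and YLR345W (r = 0.95 and 0.94). The genes nearest to SSA2 and SSE1 included those of amino acid synthesis, TRP3 (r = 0.94) beside APA1 (r = 0.95) for SSA2, and ARO4 and LYS4 (r = 0.88 and 0.87) for SSE1. SSA1 was closest to HXT5 and ALD4 (r = 0.88 and 0.86), and HSC82 to SPO16 and PDX3 (r = 0.90 and 0.89). For HSP26 and SSA4, whose swings were small, the best values were lower, 0.80 for MFG1 and 0.77 for PRY1 with HSP26, and 0.75 for REC107 and 0.73 for PCP1 with SSA4.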

How the data were processed

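RNA from each of 48 samples of 1 culture was hybridised to an Affymetrix Yeast 2.0 array. The deposited values are linear signal intensities per probe set, and the submitters' processing notes name GCOS. Its algorithm, target value and version are not stated there, so the centring of columns is unknown. Names came from GEO's platform annotation, updated by an R64 gene table that matched 5498 probe sets. Intensities under 1 were set to 1, log2 transformed and quantile normalized. The 5372 probe sets with a mean above the 90th percentile of 1747 fission yeast probe sets were tested, and 126 were left out. Where several probe sets shared a gene, the brightest on average stood for it.

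Tests used limma 3.58.1 in R 4.3.3 (eBayes with a mean-variance trend) with Benjamini-Hochberg adjustment over all tested probe sets: rhythms (F tests over a cosine and a sine), the level of both groups, differences of pairs of arrays at a fixed lag, and a linear trend beside the rhythm. Neighbouring arrays are not independent, which these tests do not model. The labels give no replicate numbers, and pairs were made by time. The members, lags, periods, lists and landmarks were chosen with earlier results of these data known. Named genes were the members, the 2 genes most correlated with each, and from each list up to 3 called genes with the largest difference, or the 1 largest where none passed. Peaks were the highest points within 12 min on each side in the 3-point running mean. Scripts were tested on simulated data. Figures were drawn with matplotlib 3.10.9.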

Additional observations from a re-analysis of the deposited data

How the results depend on the processing

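The number of arrays and the single culture limit all results. Both rhythm counts kept their side under every setting tried, with 7 to 8 of 10 members in the control and 9 to 10 after the addition. The level comparison called 0 members in all settings but the pairs. With the replicate block of pairs 44 min apart it called 2, HSP42 and HSP82. Only those pairs inform that setting, so it repeats the first cycle comparison and is no separate result on the level. The first cycle comparison, 2 calls, gave 5 with the values as deposited, 1 without the mean-variance trend, and 0 at lags of 40 and 48 min and without the pairing (1, 3 and 0 members at an unadjusted p under 0.05, limma). The second, 3 calls, gave 1 as deposited, 5 on arrays before the missing number, 1 at a lag of 44 min, and 0 at 52 min and without the pairing (3 and 1 unadjusted). The third, 4 calls, gave 1 with median-centred columns, without arrays of name suffix 2 and at a lag of 48 min, and 0 at 56 min, without the pairing and in the 3 pairs after the missing number (3, 1 and 1 unadjusted). Without the pairing the cycle itself enters the spread. HSP12 was the 1 call left wherever 1 remained in the second comparison and in the third. The trend, 6 calls, gave 8 as deposited, all higher, 3 with median-centred columns and 2, HSP12 and HSC82, with a step at the missing number. With the step SSE1 and SSA2 lost their calls at slopes of -0.31 and -0.25, larger than without it, while HSP26 and SSA4 came to 0.0241 and 0.0265. Over all alternatives the HSP12 trend was called, from 0.54 to 0.76 per hour. The pairs after the missing number and the step were chosen after seeing the data. Over all probe sets limma called 25 in the level comparison, 1 as deposited, 13 median centred, 454 with the block and 0 before the missing number. For the first cycle 456 became 948 as deposited, 4 and 9 at the other lags and 1 unpaired. For the second 1189 became 86, 34, 49 and 0 in that order. For the third 883 became 1856, 227, 86 and 17, and 525 median centred, 244 without suffix 2 and 2 in the pairs after the missing number. The 2138 trends, 39.8% of tested probe sets, became 376 before that number and 1.92% of probe sets with the step. Of 75 peak and trough times 62 were found again within 4 min as deposited, 59 median centred and 75 with a pseudocount of 50.

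Some log2 differences changed sign, none of them called in the setting of origin except SSA2, SSE1 and HSC82 named below, and the cause was not tested. In the level comparison, SSA4 was -0.0558 as deposited and -0.023 median centred, and SSA1 0.009 median centred. Without arrays of suffix 2 HSP104 was 0.0352 and SSA1 0.0203. With the block, which repeats the first cycle comparison, HSP12 was -0.22, HSP26 -0.0707, HSC82 0.0227, SSA4 -0.13 and SSE1 0.18. Before the missing number HSP26 was -0.0384, SSA4 -0.11 and SSE1 0.0104. In the first cycle HSC82 was -0.13 as deposited and -0.0107 median centred. In the second HSC82 was 0.0161 and 0.0186 under these scalings, and SSA1 -0.002 before the missing number. In the third, as deposited, HSP42 was 0.12, HSP82 0.13, HSC82 0.16, HSP104 0.12, SSA2 0.0637 and SSE1 0.0707, where the median of all tested probe sets moved by 0.19. Without suffix 2 HSP42 was 0.0042, in the pairs after the missing number HSP42 was 0.053, SSA1 -0.0626 and SSA4 -0.0064, and at a lag of 56 min HSP82 was 0.0123. For the trend HSC82 was 0.10 as deposited, SSA1 -0.0207 before the missing number, and with the step HSP82 was -0.0563, HSP104 -0.14 and SSA1 -0.0527 per hour. Of 740 recomputed values of single members 598 kept direction and call or moved by less than the spread, 74 gained or lost a call, 34 changed sign and 34 swings, mostly of the less variable members, moved by more than 1 SD.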
